A study of Mus musculus with 10 samples.

Results

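The genes of the VEGF and angiopoietin systems that were examined are 10: the ligands Vegfa, Vegfc and Pgf, the VEGF receptors Kdr and Flt1 with the co-receptor Nrp1, the angiopoietins Angpt1 and Angpt2, and their receptors Tek and Tie1. They were taken by symbol from a table of 36144 genes, and all 10 were found. RNA was measured in primary aortic smooth muscle cell cultures of 8-week-old male mice, from 3 wild-type mice and 3 mice with Adamts7 overexpression under Myh11-Cre-ERT2, a tamoxifen-inducible Cre of the smooth muscle myosin promoter. The cells came from digested aortic media after the adventitia had been taken off, and were grown in medium with 20% serum and used between passages 2 and 7. No Cre driver is named for the wild-type mice and no tamoxifen treatment is described for either genotype, so driver, any tamoxifen and transgene cannot be told apart. All libraries carry one batch label.

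VEGF-A, made by many cell types and induced by hypoxia, acts on endothelial cells mainly through VEGFR2, the product of Kdr. VEGFR1, from Flt1, binds VEGF-A and placental growth factor (Pgf) and, in its soluble form, acts largely as a trap, while VEGF-C is best known for lymphatic growth. In the second system, angiopoietin-1 from mural cells activates the endothelial receptor TIE2 (Tek), angiopoietin-2 from endothelial cells acts as its context-dependent antagonist, and TIE1 is a related receptor that modulates TIE2. In the vessel wall, the receptors are known chiefly as endothelial genes and smooth muscle is known as a source of ligands.

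Adamts7, the targeted gene, stood at 6.08, 6.18 and 8.20 TPM (transcript abundance corrected for length and relative to the library total) in wild type and at 98.7, 79.1 and 75.8 TPM in overexpression replicates 1, 2 and 3. All overexpression libraries lay above all wild-type libraries, although their titles begin with the wild-type abbreviation and only the genotype label names overexpression. TPM keeps no read number, so the depth behind each value is unknown. Endothelial markers were abundant in these cultures: the 15 markers summed to 5910 to 6419 TPM in wild type and 2937 to 4987 TPM in overexpression, and none of them was at 0. Smooth muscle markers were present too, with sums over 10 genes of 4073 to 4190 and 4686 to 6315 TPM. The 12 macrophage markers summed to 415 to 628 TPM in wild type and 1047 to 3349 TPM in overexpression cultures. On the first principal component, with 51.4% of the variance, overexpression replicate 3 scored -0.67, between the wild-type libraries (-20.3 to -16.8) and overexpression replicates 1 and 2 (18.6 and 39.4). In this bulk RNA, fewer cells of a type and less RNA per cell cannot be told apart.

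In wild-type cultures Tie1 was the most abundant of the 10 genes and Angpt1 the least. By mean TPM the order was Tie1 (162), Nrp1 (92.7), Vegfa (79.4), Angpt2 (74.4), Flt1 (23.5), Pgf (15.7), Tek (15.0), Kdr (8.96), Vegfc (2.31) and Angpt1 (0.47). The wild-type ranges of Vegfa and Angpt2 overlapped, as did those of Pgf and Tek, and every other pair of neighbours was separate. In overexpression cultures the ranges of Tie1 and Nrp1 and of Flt1 and Pgf overlapped as well. By wild-type TPM, Tie1 ranked 960th and Kdr 9309th among all genes, and Kdr was the lowest of the 5 receptors and co-receptors.

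**Figure D1:**
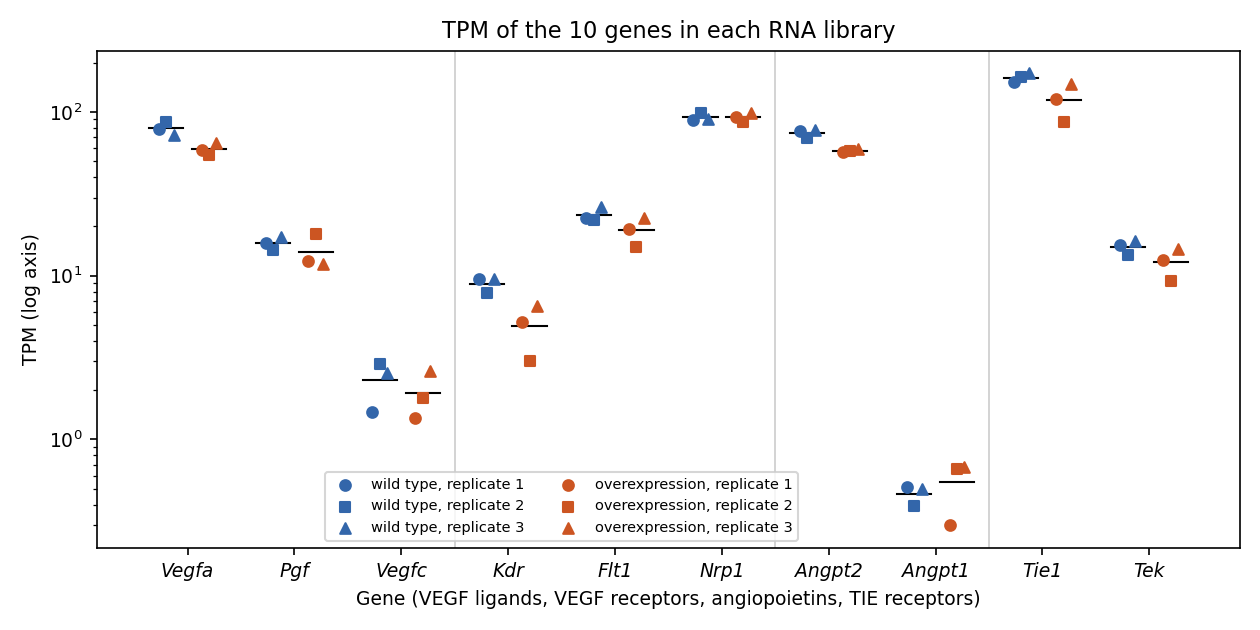
TPM (log axis) of the 10 genes in each of the 6 RNA libraries, wild type in blue and overexpression in orange, with replicates by symbol and black lines at the group means. The overexpression libraries lie below all wild-type libraries for Vegfa, Kdr, Angpt2 and Tie1, and Nrp1 is level at 92.7 and 92.5 TPM.

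No gene of the 10 passed the test across all genes, and 4 of them, Vegfa, Angpt2, Kdr and Tie1, were lower in every overexpression library than in any wild-type library. Genes were tested with limma on log2(TPM + 1) where their mean was at least 1 TPM, with Benjamini-Hochberg adjustment over 13131 genes and a threshold of 0.05. Of the 10 genes 9 reached that mean; Angpt1 did not. With 0 of 9 called, the background was 0.0152% of tested genes called in either direction, all of them higher. At an unadjusted p under 0.05, 4 of 9 were lower and 0 higher, against 8.94% of tested genes lower and 19.5% in either direction. The same 4 were the ones whose libraries did not overlap, against 12.9% of tested genes with all overexpression libraries lower and 27.2% with no overlap in either direction. Every one of the 9 fold changes was below 0, as were 51.7% of all tested genes, and their median was -0.31 against -0.01 for all tested genes. That of Nrp1 was so close to 0 that it turned positive under quantile normalisation and median-of-ratios scaling.

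Which libraries were used decided the call. Without overexpression replicate 3, limma called the same 4 genes lower, with adjusted p of 0.0358 for Vegfa, 0.0432 for Angpt2, 0.0423 for Kdr and 0.0425 for Tie1, against 2.31% of tested genes called lower and 3.99% higher. When limma weighted each library by its scatter around the group means, those 4 were again called. Their limma adjusted p ran from 0.00629 for Angpt2 to 0.0168 for Tie1, against 9.42% of tested genes called lower and 11.4% higher. Over 14 alternatives the adjusted p ranged from 0.0085 to 0.354 for Vegfa, 0.00629 to 0.354 for Angpt2, 0.0153 to 0.364 for Kdr and 0.0168 to 0.432 for Tie1 (limma). In the weighted fit the weight of overexpression replicate 1 was 5.66, while the other libraries had 0.28 to 1.54, so that 1 library carried most of the overexpression side.

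Among the ligands, Vegfa was the most abundant. It stood at 78.8, 86.8 and 72.6 TPM in the wild-type libraries, against 58.7, 54.3 and 64.9 TPM with overexpression. The highest overexpression library was below the lowest wild-type library. The overexpression mean was 0.747 of the wild-type mean, and limma gave a log2 fold change of -0.42 ± 0.09 (SE) with an adjusted p of 0.131.

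Pgf, the ligand that binds only VEGFR1 and neuropilins, stood at 15.7, 14.3 and 17.2 TPM among wild-type libraries, whereas overexpression libraries gave 12.2, 18.0 and 11.7 TPM. The groups overlapped, because overexpression replicate 2 held the highest value of all 6. Its log2 fold change was -0.18 ± 0.16 (limma adjusted p = 0.577) and was -0.31 with weighted libraries. It was -0.36 without overexpression replicate 2 and between -0.24 and -0.075 without any other single library, the value nearest 0 being that without overexpression replicate 3.
Vegfc was low, at 1.48, 2.91 and 2.55 TPM for the wild-type mice, compared with 1.35, 1.79 and 2.64 TPM under overexpression. The groups overlapped throughout, with a log2 fold change of -0.18 ± 0.24 (limma adjusted p = 0.727). Its 95% interval ran from -0.75 to 0.39, so changes of that size in either direction could not be told from none. Leaving out 1 library moved the value to -0.37 (without wild-type replicate 1), -0.34 (overexpression replicate 3), -0.11 (wild-type replicate 3), -0.04 (wild-type replicate 2) or -0.03 (overexpression replicate 1).

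Of the VEGF receptors, Kdr had the greatest difference of the 10 genes. It stood at 9.49, 7.84 and 9.55 TPM in the wild-type libraries, against 5.25, 3.01 and 6.56 TPM with overexpression. The groups did not overlap, and overexpression replicate 2 was lowest. The overexpression mean was 0.551 of wild type, with a log2 fold change of -0.79 ± 0.23 (limma adjusted p = 0.151), and the fold change was -0.53 without overexpression replicate 2.

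Flt1 stood at 22.5, 21.8 and 26.1 TPM among wild-type libraries, whereas overexpression libraries gave 19.2, 15.1 and 22.6 TPM. Overexpression replicate 3 lay inside the wild-type range and the other overexpression libraries below it. The log2 fold change was -0.31 ± 0.15 (limma adjusted p = 0.300) and was -0.16 without overexpression replicate 2. The gene total does not separate the membrane receptor from its soluble form.

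Nrp1, the co-receptor that endothelial and smooth muscle cells both express, stood at 89.2, 98.8 and 90.1 TPM for the wild-type mice, compared with 92.5, 86.4 and 98.7 TPM under overexpression. The groups covered nearly the same range. The log2 fold change was -0.0028 ± 0.074 (limma adjusted p = 0.987), with a 95% interval from -0.18 to 0.17.

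Among the angiopoietins, Angpt2 had the smallest p-value of the 10 genes. It stood at 76.2, 69.5 and 77.6 TPM in the wild-type libraries, against 57.1, 58.0 and 59.0 TPM with overexpression. The groups did not overlap, and the overexpression libraries lay within 2 TPM of each other. The overexpression mean was 0.779 of wild type, with a log2 fold change of -0.35 ± 0.07 and a limma adjusted p of 0.128; by unadjusted p it was the 82nd of the 13131 genes. This fold change was between -0.40 and -0.32 whichever library was left out.

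Angpt1, the mural ligand, was very low, at 0.51, 0.39 and 0.50 TPM among wild-type libraries, whereas overexpression libraries gave 0.30, 0.66 and 0.68 TPM. The groups overlapped, and a two-sided exact permutation test over the 6 libraries gave p = 0.6, where 3 against 3 cannot go below 0.1. Angpt2 RNA was thus 149 to 177 times as abundant as Angpt1 in wild type and 86.3 to 191 times in overexpression libraries.

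Of their receptors, Tie1 stood at 152, 163 and 172 TPM for the wild-type mice, compared with 121, 86.9 and 149 TPM under overexpression. The groups did not overlap, but overexpression replicate 3 came within a few TPM of the lowest wild-type library. The overexpression mean was 0.732 of wild type, with a log2 fold change of -0.48 ± 0.18 (limma adjusted p = 0.209); without overexpression replicate 2 it was -0.27.
Tek, which encodes TIE2, stood at 15.4, 13.3 and 16.3 TPM in the wild-type libraries, against 12.6, 9.34 and 14.5 TPM with overexpression. Overexpression replicate 3 lay inside the wild-type range. The log2 fold change was -0.30 ± 0.16 (limma adjusted p = 0.343) and was -0.14 without overexpression replicate 2.

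**Figure D2:**
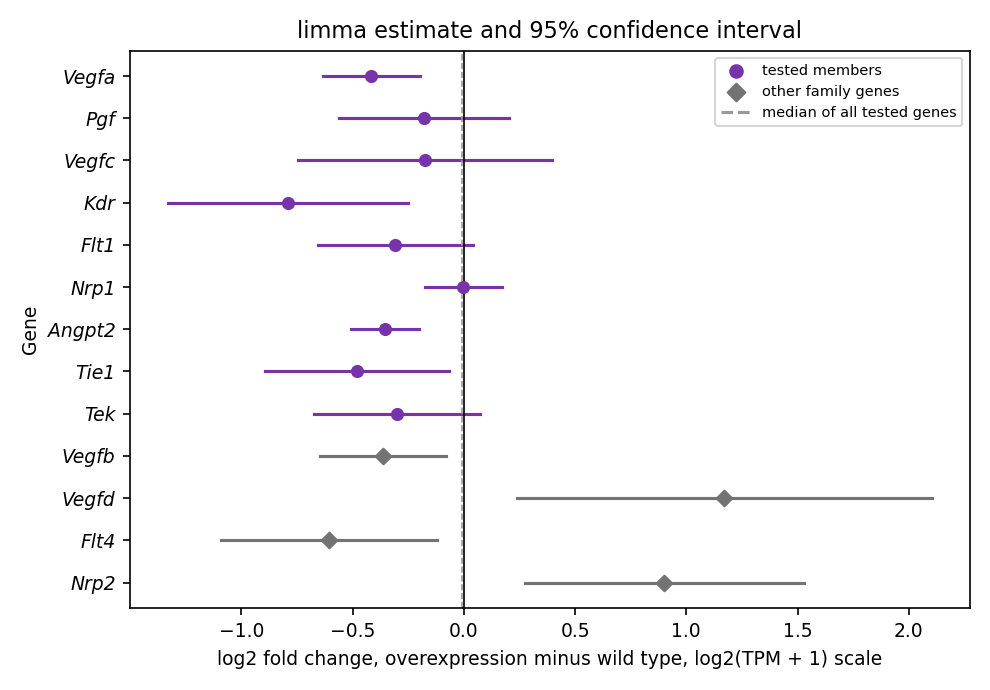
limma log2 fold changes (overexpression minus wild type, log2(TPM + 1) scale) with 95% confidence intervals for the 9 tested genes (purple circles) and 4 other genes of the same families (grey diamonds). The intervals of Vegfa, Kdr, Angpt2 and Tie1 lie below 0, that of Nrp1 is centred at 0, and Vegfd and Nrp2 lie above 0.

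The balance within a library was compared for 5 pairs by two-sided exact permutation tests on log2(TPM + 1) ratios, none of which can go below p = 0.1. The Flt1 to Kdr ratio of TPM was 2.37, 2.78 and 2.73 in wild type and 3.65, 5.01 and 3.45 in overexpression cultures. All overexpression ratios were above all wild-type ratios (exact permutation p = 0.1, adjusted over the 5 ratios 0.25), and the log2 difference of 0.48 was 0.37 to 0.55 with any 1 library left out. The Angpt2 to Angpt1 ratio gave an exact permutation p = 0.1 as well (adjusted 0.25), with a difference of -0.42, but with a pseudocount of 0.1 in place of 1 the groups overlapped and p was 0.4. The ratios Tie1 to Tek (p = 0.2), Vegfc to Vegfa (p = 0.4) and Pgf to Vegfa (p = 0.6) overlapped between genotypes, with adjusted p of 0.333, 0.5 and 0.6 in these exact tests.

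**Figure D3:**
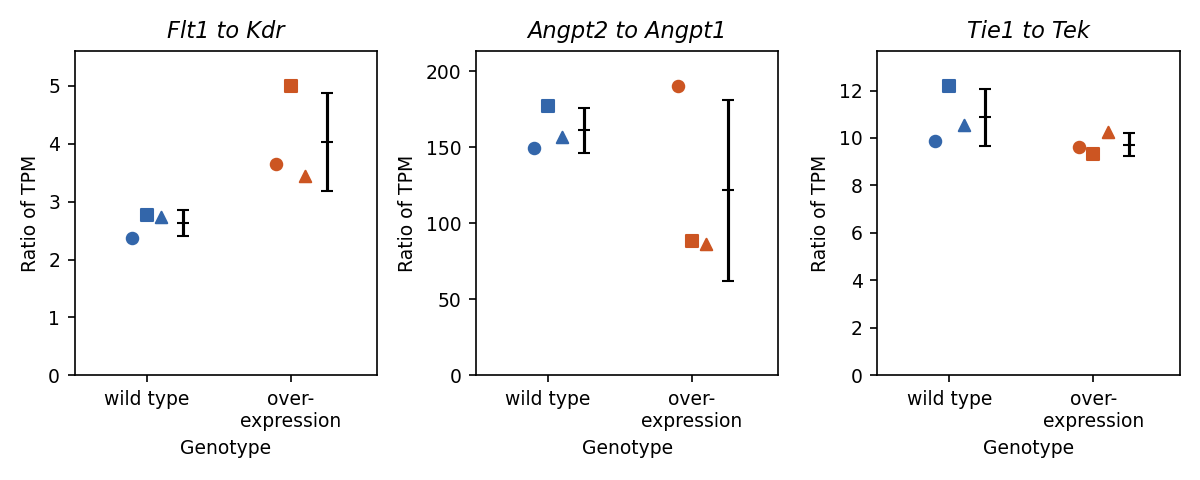
Ratio of TPM in each library for Flt1 to Kdr, Angpt2 to Angpt1 and Tie1 to Tek, by genotype, with replicates 1 to 3 as circle, square and triangle and black bars for mean and SD (n = 3). The Flt1 to Kdr ratio is 2.63 ± 0.22 in wild type and 4.03 ± 0.85 in overexpression cultures, with no overlap; overexpression replicate 1 stands above the other overexpression libraries for Angpt2 to Angpt1.

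Endothelial markers were lower in the same libraries. Of the 15 markers 14 had a fold change below 0, against 51.7% of all tested genes. At an unadjusted limma p under 0.05, 12 markers were lower, against 8.94% of tested genes, and 0 had an adjusted p under 0.05. The median log2 fold change of the markers was -0.50. The median marker shift from wild type was -0.45, -0.93 and -0.24 for overexpression replicates 1 to 3 in turn. Kdr, Tie1, Flt1, Tek and Vegfa had the same order of libraries, with Kdr at -0.67, -1.31 and -0.39, Tie1 at -0.42, -0.89 and -0.12 and Vegfa at -0.43, -0.54 and -0.28. Nrp1, level between genotypes, also had replicate 2 lowest and replicate 3 highest (-0.0011, -0.098 and 0.091). The first principal component and the pericyte and smooth muscle markers likewise had replicate 2 furthest from wild type and replicate 3 nearest. This order is thus not particular to endothelial genes, and its share among all genes was not counted. Angpt2 had shifts of -0.38, -0.35 and -0.33, which lie close together.
Marker lists of other cells lay on the higher side, with 0 genes called by limma's adjusted p: the 12 macrophage markers had a median of 1.73, all above 0, and the 10 smooth muscle markers a median of 0.40, with 9 above 0. Of all tested genes, 51.7% were below 0. The other lists were split. Of 8 pericyte markers 5 were tested, with a median of 0.76, 3 of them above 0 and 2 below. Of 8 fibroblast markers 6 were tested, with a median of 0.23, 4 of them above 0 and 2 below. Of 7 lymphatic endothelial markers, which summed to 34.1 to 39.1 TPM in wild type and 33.1 to 50.5 TPM in overexpression, 5 were under 1 TPM on average, Prox1 and Lyve1 among them. The others were Flt4 and Pdpn, which went opposite ways. Flt4 was at 27.9 and 18.5 TPM with all overexpression libraries lower (limma adjusted p = 0.191). Pdpn was at 6.70 and 23.7 TPM with all overexpression libraries higher (limma adjusted p = 0.151). Of all tested genes, 12.9% had all overexpression libraries lower and 14.3% had them all higher. Prox1, Lyve1 and Pdpn were named after their values were seen.

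Each gene was therefore also measured against the mean log2(TPM + 1) of the 15 endothelial markers in its own library, an alternative chosen after seeing the data. The marker mean itself differed by -0.48, so this scale raises every difference by that amount: all tested genes had a median difference of 0.47, 3.02% of them were below 0, and 50.3% were called higher and 0.107% lower by limma. Tie1 had a difference of 0.0038 and Vegfa of 0.067, and their groups overlapped. Kdr was the one gene of the 9 still below 0, with a difference of -0.31 and every overexpression library below every wild-type library (exact permutation p = 0.1; limma adjusted p = 0.169), against 0.221% of tested genes with all overexpression libraries lower. Against the markers' median in place of their mean, its difference was -0.24 (limma adjusted p = 0.409). Flt1 at 0.17, Tek at 0.18 and Nrp1 at 0.48 had every overexpression library above every wild-type library (exact permutation p = 0.1 each), as had 69.2% of tested genes. Nrp1 was called higher (limma adjusted p = 0.0334) and was not called against the markers' median (0.073). Unscaled, the log2 fold changes of the markers themselves ranged from -0.86 for Emcn to 0.13 for Vwf, against -0.79 for Kdr. Mmrn2 and Eng had -0.70 each and Cldn5 -0.09, so a fall beyond the marker mean was not particular to Kdr. Emcn, Vwf, Eng and Cldn5 are named after their values were seen. The part of endothelial cell content in the lower values was not tested beyond this scale.

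**Figure D4:**
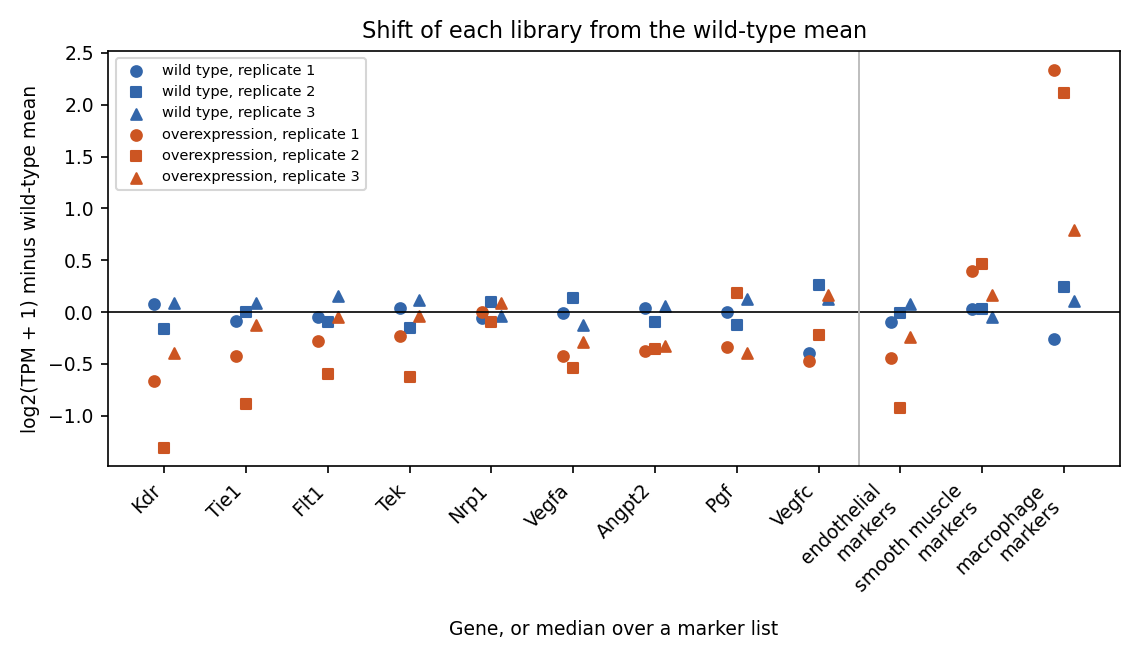
Difference of log2(TPM + 1) from the wild-type mean in each library for the 9 tested genes, and the median of that difference over 3 marker lists on the right. In Kdr, Tie1, Flt1, Tek and Vegfa, overexpression replicate 2 is lowest and replicate 3 nearest to wild type, as in the endothelial markers, while the macrophage markers reach 2.34 in overexpression replicate 1. The smooth muscle markers, on the higher side, also have replicate 2 furthest from wild type and replicate 3 nearest.

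Other genes of the same families split in direction. The lists given here were chosen with earlier results of these data known, and 0 genes of any list passed limma's adjusted threshold; counts below use an unadjusted p under 0.05, against 10.6% of tested genes higher and 8.94% lower. Of 4 tested family genes, 2 were lower and 2 higher. Vegfb, which binds VEGFR1, was at 90.8 ± 2.37 TPM among wild-type libraries, whereas overexpression libraries gave 71.0 ± 11.9 TPM, and Flt4, the VEGF-C receptor, at 27.9 ± 2.07 and 18.5 ± 5.48 TPM (SD, n = 3 each). Without overexpression replicate 2, the fold changes went from -0.36 to -0.22 (log2) for Vegfb and from -0.61 to -0.35 for Flt4. Nrp2, a co-receptor of lymphatic and other cells, was at 4.07, 4.72 and 4.86 TPM for the wild-type mice, compared with 12.3, 11.8 and 5.52 TPM under overexpression. Vegfd, named after its values were seen, was at 9.80, 13.7 and 8.36 TPM in the wild-type libraries, against 29.0, 41.2 and 12.3 TPM with overexpression. For both genes overexpression replicate 3 was much nearer to wild type than the other overexpression libraries, as were the median shifts of the macrophage markers (2.34, 2.11 and 0.79), the pericyte markers (0.71, 1.23 and 0.33) and the smooth muscle markers (0.40, 0.47 and 0.17). Without overexpression replicate 3, limma's adjusted p called 2 of these family genes higher and 0 lower. In that fit 3.99% of all tested genes were called higher and 2.31% lower.

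Genes that respond to VEGF or mark sprouting tip cells were mostly lower: 9 of 17 tested were lower and 1 higher, with a median log2 fold change of -0.25. Esm1, a secreted proteoglycan of tip cells, was at 264 ± 23.2 TPM among wild-type libraries, whereas overexpression libraries gave 146 ± 52.7 TPM (SD, n = 3 each), its log2 fold change being -0.91 ± 0.24 (SE). Hlx, a homeobox gene induced by VEGF, had -0.48 and Pdgfb, the tip cell signal to pericytes, -0.50, both with no overlap between genotypes. Cd34, a surface sialomucin of endothelial cells, was at 1001 and 741 TPM, its log2 fold change of -0.46 being -0.26 without overexpression replicate 2. Several of these genes are themselves endothelial genes, and the endothelial markers had a median of -0.50 in the same libraries. Robo4 is in both lists, so they are not independent, and a part of endothelial cell content in these values was not tested.

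Co-receptors and modulators went both ways, with 4 of 21 tested higher, 3 lower and a median of -0.14. Sema3a, a neuropilin ligand that competes with VEGF, was at 14.9 ± 0.70 TPM for the wild-type mice, compared with 33.9 ± 16.4 TPM under overexpression (SD, n = 3 each). Sdc2, a heparan sulfate proteoglycan, had a log2 fold change of 0.37, and Mmrn2, an endothelial matrix protein that binds VEGF, -0.70, which was -0.42 without overexpression replicate 2; the Sema3a value of 1.03 was then 0.67. Ccn2, a matricellular protein that can bind VEGF, was at 1564 and 1791 TPM with overlapping groups. Mmrn2 and Ptprb of this list are also among the endothelial markers.
Downstream of the VEGF receptors, 3 of 23 tested genes were lower and 0 higher, with a median of -0.03. Pxn, the focal adhesion adaptor paxillin, had -0.34, the Src family kinase gene Fyn -0.20 and Nos3, named after its values were seen, -0.59. Mapk3 and Akt1, the most abundant of the list, had -0.03 and -0.02.
Of 9 tested genes of TIE receptor signalling 2 were higher and 1 lower, with a median of -0.07. The higher genes were Dok2 and Grb14. Dok2, a TIE2 adaptor that is also expressed in myeloid cells, was at 2.75 and 5.46 TPM with overlapping groups. The adaptor gene Grb14 was at 3.46 and 5.63 TPM. The lower gene was Foxo1, named after its values were seen, at 16.2 and 14.1 TPM. Its log2 fold change was -0.19 (limma unadjusted p = 0.0399, adjusted p = 0.234), with all overexpression libraries lower. Shc1 at 164 and 147 TPM and the phosphatase gene Ptpn11 at 137 and 144 TPM were counted in neither direction.

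Among regulators and targets of the hypoxia response, which induces Vegfa, 4 of 18 were lower and 1 higher, with a median of -0.10. Adm, the peptide hormone adrenomedullin, stood at 143, 140 and 159 TPM in the wild-type libraries, against 96.2, 80.1 and 110 TPM with overexpression, a log2 fold change of -0.63 ± 0.12 (limma adjusted p = 0.128). Epas1, which encodes the endothelium-rich hypoxia factor HIF-2α, had 289 ± 14.3 and 199 ± 62.4 TPM (SD, n = 3 each), and its log2 fold change of -0.59 was -0.35 without overexpression replicate 2. Hif1a and Arnt, named after their values were seen, overlapped between genotypes. Their log2 fold changes were -0.12 (limma adjusted p = 0.433) and 0.014 (limma adjusted p = 0.943). The glycolytic targets Ldha and Pgk1 had log2 fold changes of 0.25 (0.15 without overexpression replicate 2) and -0.02, and that of Pgk1 was 0.0098 with weighted libraries.

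The deposited chromatin data give a second readout, of motif sites rather than of the factors themselves. It is pooled over 2 mice per genotype and over all sites of a motif in the genome, not at the 10 genes. In the authors' deposited table of footprint scores, which estimate factor occupancy from ATAC-seq, the EPAS1 motif scored 0.314 in wild type and 0.275 in overexpression. Its change score, turned so that negative means lower in overexpression, was -0.32, the 12th lowest of 879 motifs, and it is among the 96 motifs marked there by the authors. In the same authors' deposited table the HIF1A motif scored 0.281 and 0.253 (change -0.24, the 34th lowest, with the same mark). The Arnt motif scored 0.281 and 0.255 in the authors' deposited table (-0.21, the 49th lowest) and is not marked there. Of 4706 EPAS1 sites, 20.8% were called bound in wild type (95% Wilson interval 19.7% to 22.0%) and 16.7% in overexpression (15.7% to 17.8%) in the authors' deposited table, intervals that cover counting error only.
Motifs of endothelial ETS factors scored the other way in the authors' deposited table, with change scores of 0.13 for Erg, 0.17 for ETS1 and 0.18 for FLI1, near the median of 0.11 over all motifs. Foxo1, a regulator of Angpt2, had 0.23, and KLF2 and KLF4 had -0.01 each in the authors' deposited table. With the mice pooled, none of these differences has a replicate error, and EPAS1 and HIF1A belong to 1 motif cluster in that table.

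The start regions of Vegfa and Tie1, a ligand and a receptor among the 4 lower genes, are shown so that the letters searched for can be seen in place. Each is the 250 bases before the annotated start, 5′ to 3′ along the gene's strand, from RefSeq on GRCm38.p6, where 8 of the 10 genes had such a sequence. The windows are chr17:46032378-46032627 for Vegfa and chr4:118489850-118490099 for Tie1, both on the minus strand. Capitals mark the GC box GGGCGG in Vegfa and the ETS core CGGAA in Tie1, and both strands were searched.
Vegfa: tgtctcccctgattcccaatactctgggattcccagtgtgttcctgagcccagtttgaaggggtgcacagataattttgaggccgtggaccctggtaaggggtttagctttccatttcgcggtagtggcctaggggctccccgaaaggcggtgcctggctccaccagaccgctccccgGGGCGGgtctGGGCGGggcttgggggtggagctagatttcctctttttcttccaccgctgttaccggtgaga
Tie1: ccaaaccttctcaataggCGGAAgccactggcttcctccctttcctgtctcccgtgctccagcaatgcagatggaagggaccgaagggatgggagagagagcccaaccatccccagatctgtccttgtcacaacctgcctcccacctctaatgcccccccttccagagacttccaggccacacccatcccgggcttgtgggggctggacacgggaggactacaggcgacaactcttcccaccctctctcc
The Vegfa window held 2 GC boxes, and no match to the hypoxia factor core letters ACGTG or GCGTG on either strand. Bases further upstream were not searched, so this absence holds for these 250 bases only. The window of the other annotated Vegfa start, at position 46025163, held 2 hypoxia factor cores and 1 GC box. The Tie1 window held 1 match to CGGAA and no GC box. Over all 32851 windows of this length in the table, 38.6% held a hypoxia factor core, 25.2% the ETS core and 32.7% a GC box. Of the 10 windows of the examined genes, which include 2 starts each for Vegfa and Pgf, 5 held a hypoxia factor core, 2 the ETS core and 7 a GC box. Matches to these letters can share bases with one another, as where a GC box runs into an ETS core.

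For the 3 most abundant genes, those with the most similar pattern over the 6 libraries were sought among 9077 genes averaging 10 TPM or more. Tie1 was most like Sema6b (Pearson r = 0.998), Cdc42bpg (0.998) and Rgs3 (0.998), Vegfa like Ndn, Smad3 and Dyrk1b (0.989, 0.988 and 0.988), and Nrp1 like Fars2, Ercc3 and Rad17 (0.987, 0.978 and 0.975). With 6 libraries that differ in genotype and cell markers, values this high are a description of shared shape only. Across the same libraries the log2 level of Tie1 had r = 0.988 with the endothelial marker mean, Kdr 0.966, Flt1 0.949, Tek 0.907, Vegfa 0.884 and Angpt2 0.803. Vegfc had 0.544, Nrp1 0.464, Pgf -0.08 and Angpt1 -0.22.

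On GRCm38.p6, which is the mm10 assembly, Tek (chromosome 4, 94739086 to 94874976) and Tie1 (118471191 to 118489849) lie on one chromosome, as do Kdr (chromosome 5, 75932827 to 75979072) and Flt1 (147561604 to 147726438). Angpt2 (18690263 to 18741562), Vegfc (54077532 to 54186454) and Nrp1 (128358591 to 128505476) lie on chromosome 8, Pgf on chromosome 12 (85166637 to 85177785), Angpt1 on chromosome 15 (42424667 to 42676977) and Vegfa on chromosome 17 (46016993 to 46032377). Each value is a sum over the whole gene, so splice forms of Vegfa, such as its heparin-binding and diffusible forms, were not separated.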

How the data were processed

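The authors deposited TPM per gene for 6 RNA libraries, named as kallisto output per the labels. The build is given as mm10 in the submitters' processing notes, while version, annotation and read numbers of that step were not found there. Because TPM share a fixed total, a difference in abundant genes shifts all others. For ATAC-seq (50000 cells, 2 mice per genotype) the authors deposited a table whose columns are those of TOBIAS BINDetect, per the file headers, with a footprint score per motif and genotype and a count of bound sites; the authors' deposited p-value per motif, 1 per pooled comparison, was not used.

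Groups came from the genotype label and replicate numbers from the mouse number in the titles. limma 3.58.1 was fitted to log2(TPM + 1) (lmFit, eBayes with trend, R 4.3.3), two-sided, where the mean was at least 1 TPM, with Benjamini-Hochberg adjustment over all genes tested; fold changes on this scale understate those of low genes. Single values had exact permutation tests. Motifs, Wilson intervals and figures were made in Python 3.11.15 with scipy 1.17.1 and matplotlib 3.10.9.

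The 10 genes and all lists were chosen with earlier results of these data known. Named genes are Adamts7, the 10, in each gene list the 2 of lowest p and the 2 of highest TPM, and, for the 3 most abundant of the 10, the 3 most similar genes; others are said to be named after their values were seen. Alternatives changed the scaling, pseudocount, filter, weights, variance trend, replicate block and libraries. Levels relative to the endothelial markers were added after seeing the data, first with the marker median and then, once those values were known, with the marker mean, which the report gives first; both are printed. The GC box was added to the motif search, and marked in the Vegfa window, after that window showed no hypoxia factor core.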

Additional observations from a re-analysis of the deposited data

How the results depend on the processing

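Vegfa, Angpt2, Kdr and Tie1 had a negative fold change and stayed uncalled under quantile normalisation, median-of-ratios scaling, a pseudocount of 0.1, no filter, a mean of at least 5 TPM, no variance trend and without any library other than overexpression replicate 3. Leaving out 1 library gave 0 to 4 of the 10 genes lower and 0 higher, and 1 to 524 genes higher and 0 to 304 lower over the whole table. Per list these fits gave 0 to 2 family genes higher; 0 to 2 co-receptors higher and 0 to 1 lower; 0 to 1 genes of VEGF receptor signalling lower; 0 to 1 of TIE signalling higher; 0 to 1 tip cell genes higher and 0 to 4 lower; and 0 to 2 hypoxia genes lower. Library weights gave 4 of the 10 genes lower, 1491 genes higher and 1237 lower in all, and by list 2 family genes higher and 1 lower, 4 co-receptors higher and 5 lower, 3 genes of VEGF receptor signalling lower, 1 of TIE signalling higher, 1 tip cell gene higher and 8 lower, and 1 hypoxia gene higher and 4 lower. A mean of at least 5 TPM gave 1 gene higher, as did the replicate block. Without overexpression replicate 2 the log2 fold change was 0.04 for Ccn2 (from 0.18), 0.36 for Grb14 (from 0.55), -0.09 for Shc1 (from -0.16) and 0.03 for Ptpn11 (from 0.07). The Adamts7 fold change was 3.34 to 3.58 with 1 library left out.

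Signs turned as follows, and the cause was not tested. Nrp1 had 0.0018 under quantile normalisation, 0.0083 under median-of-ratios scaling, and -0.050 to 0.045 with 1 library left out. Against the endothelial marker mean the differences were 0.067 for Vegfa, 0.31 for Vegfc, 0.30 for Pgf, 0.17 for Flt1, 0.48 for Nrp1, 0.18 for Tek, 0.0038 for Tie1 and 0.13 for Angpt2, and against the marker median 0.13, 0.37, 0.37, 0.24, 0.54, 0.25, 0.067 and 0.19. With 1 library left out Akt1 ranged from -0.061 to 0.023 and Pgk1 from -0.057 to 0.023, and Pgk1 had 0.0098 with library weights. The Pgf to Vegfa difference of 0.23 ranged from -0.0081, without overexpression replicate 2, to 0.41.

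Whether mouse numbers pair the libraries could not be decided. Same-numbered deviations had correlations of -0.022, 0.058 and 0.018 across genes. Not every library correlated best with its own number, although 0.058 was the highest value of all pairs. Deviations from a mean of so few libraries depend on each other, so low correlations cannot exclude pairing. With the replicate block, Kdr had an adjusted p of 0.126, Angpt2 0.123, Vegfa 0.155 and Tie1 0.177 (limma), and none of the 10 was called. The block lowered the SE of Kdr from 0.230 to 0.161 and that of Tie1 from 0.177 to 0.140. The SE also fell for Flt1 (0.148 to 0.099), Tek (0.160 to 0.105) and Vegfc (0.243 to 0.191). It rose for Vegfa (0.094 to 0.109), Angpt2 (0.065 to 0.070), Pgf (0.163 to 0.175) and Nrp1 (0.074 to 0.084). Depth is unknown, so the precision of low genes such as Angpt1 and Vegfc cannot be given from counts.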
